A study of Mus musculus with 6 samples.

Results

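The miR-21a hairpin gives a pair of mature microRNAs, mmu-miR-21a-5p and mmu-miR-21a-3p (miR-21a-5p and miR-21a-3p below), and these are the 2 members described here, of 1390 mature miRNAs in the deposited count table. They were taken by name. The name was chosen by level, since miR-21a-5p had the highest mean count share of all miRNAs in these libraries. How high it stood among miRNAs, and its place in the order, are therefore given as a description and are not tested. The tests of its level below compare irradiated with control libraries. Mature miRNA reads were counted in whole thymus of C57BL wild-type mice aged 5 weeks, in 2 groups of 3 mice. The labels call the sequenced molecule polyA RNA and name library kits without a small-RNA protocol, so how small RNAs were captured is unknown, and with it any bias in the shares and strand ratios. The irradiated mice were exposed to 6 Gy of X-rays, delivered at a rate of 800 cGy/min and a distance of 40 cm, and killed after 24 h. Control mice were not exposed to irradiation. Each library came from a whole organ, so fewer cells of a type and less RNA per cell cannot be told apart.

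A miRNA hairpin is cut by Drosha and Dicer into a short duplex, and usually one strand (the guide) is kept by an Argonaute protein while the other (the passenger) is mostly degraded. The guide pairs with messenger RNAs mainly through its seed, bases 2 to 8, and lowers their output. In miR-21 the 5p strand is the guide. It is abundant in many tissues, is raised by the transcription factors STAT3 and AP-1 during inflammation and injury, and represses Pdcd4, an inhibitor of translation. No target was measured in these libraries.

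The mature strands are printed 5′ to 3′ with the seed in capitals, because the seeds show that the strands would address different targets. MiR-21b and miR-21c, whose values were not analysed here, are printed to show how far the nearest named relatives differ. The first pair is as in the deposited table and is identical in RefSeq (GRCm38.p6), and the second pair is from RefSeq.
miR-21a-5p: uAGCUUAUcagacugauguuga
miR-21a-3p: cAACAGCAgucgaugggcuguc
miR-21b: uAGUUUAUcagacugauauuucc
miR-21c: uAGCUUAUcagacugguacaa

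The seed of miR-21a-5p was held by 1 of the 1390 miRNAs in the table, miR-21a-5p itself, and so was the seed of miR-21a-3p. Among 1738 mature mouse miRNAs in RefSeq, the 5p seed was shared by miR-21a-5p and miR-21c and the 3p seed was found in miR-21a-3p alone. With positions counted from 1 at the 5′ end, miR-21b carries C4U inside the seed and G18A, G21U and A22C further on. MiR-21c keeps the seed and differs by A16G, G18A, U19C, U20A and G21A. Reads of full length from these relatives are therefore distinguishable from miR-21a-5p by several bases.

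Mir21a lies on the minus strand of chromosome 11 at chr11:86584067-86584158 in GRCm38, with miR-21a-5p at chr11:86584120-86584141 and miR-21a-3p at chr11:86584082-86584103. It overlaps the protein-coding gene Vmp1 (chr11:86583865-86683836, same strand), which encodes a membrane protein of autophagy. In GENCODE M21 the hairpin falls inside the last exon of the Vmp1 transcript annotated there (chr11:86583865-86585451), in its 3′ untranslated part. The 92-base hairpin folded with RNAfold at -46.2 kcal/mol, and 19 of the 22 bases of miR-21a-5p were paired with miR-21a-3p. The first base of miR-21a-5p was a U facing a G, and the first base of miR-21a-3p was a C facing a G. The first pair thus differed between the strands, while over the first 4 bases each strand had 4 of 4 paired and 2 G-C pairs in this fold.

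Each library held between 7730641 and 9287017 counts, spread over 828 to 924 miRNAs. A count of 0 would allow up to 3 counts, which is 0.323 to 0.388 CPM (a count divided by its library total and put on one common scale), and neither member was at 0 in any library. Without molecular identifiers on the reads, intervals on counts speak for counting error alone. Thymocyte miRNAs were present as the tissue label requires, with miR-181a-5p at 0.317% ± 0.0892 of counts in irradiated and 9.59% ± 1.79 in control libraries (SD, n = 3).

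MiR-21a-5p took a larger share of the miRNA counts in every irradiated thymus than in any control thymus. It was counted 2989022, 1707886 and 3073667 times in irradiated replicates 1, 2 and 3, against 1529876, 1289135 and 1455028 times in control replicates 1, 2 and 3. These are 34.5%, 20.0% and 33.1% of the counts in irradiated libraries and 17.95%, 16.7% and 17.7% in control libraries. Irradiated replicates 1 and 3 lay far above the controls, replicate 2 lay just above them, and the groups did not overlap. On the TMM scale introduced below, groups did not overlap for 68.6% of the tested miRNAs, 32% with irradiated higher, so this is common in these libraries. Counting error was negligible beside this spread, as the exact Clopper-Pearson 95% interval of irradiated replicate 2 was 19.99% to 20.04%. The mean shares differed by 11.8 percentage points (exact two-sided permutation p of 0.1, and 3 against 3 libraries can give none smaller).

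**Figure D1:**
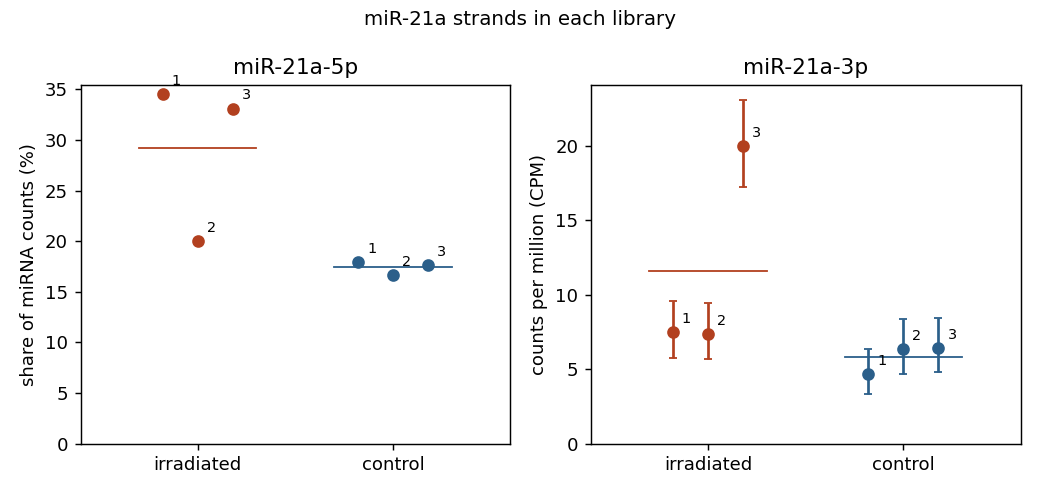
Points are libraries (replicate number beside each), horizontal lines are group means, and bars are exact 95% counting intervals. The left panel gives miR-21a-5p as a percent of miRNA counts (16.7% to 34.5%) and the right panel miR-21a-3p in CPM by library total (4.69 to 20.03). All irradiated points lie above all control points in each panel, with irradiated replicate 2 close to the controls for miR-21a-5p and replicates 1 and 2 close to them for miR-21a-3p.

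In the order of levels miR-21a-5p stood first or second in each of the 6 libraries. It was first in irradiated replicates 1 and 3 and in control replicates 2 and 3. In irradiated replicate 2 and control replicate 1 the first place went to miR-143-3p, which is typical of smooth muscle cells and fibroblasts. The mean shares of these neighbours were 29.2% ± 7.99 for miR-21a-5p and 24.0% ± 5.17 for miR-143-3p in irradiated libraries (SD, n = 3). In control libraries they were 17.4% ± 0.668 and 14.8% ± 3.83 (SD, n = 3), so the order of the leading 2 miRNAs lay within the spread between mice in either group. The third, miR-148a-3p, held 9.18% ± 1.22 in irradiated and 9.75% ± 0.907 in control libraries, which is below miR-21a-5p in all 6. MiR-21a-3p stood in places 284, 317 and 236 in irradiated replicates 1, 2 and 3 and in places 345, 370 and 340 in control replicates 1, 2 and 3.

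**Figure D2:**
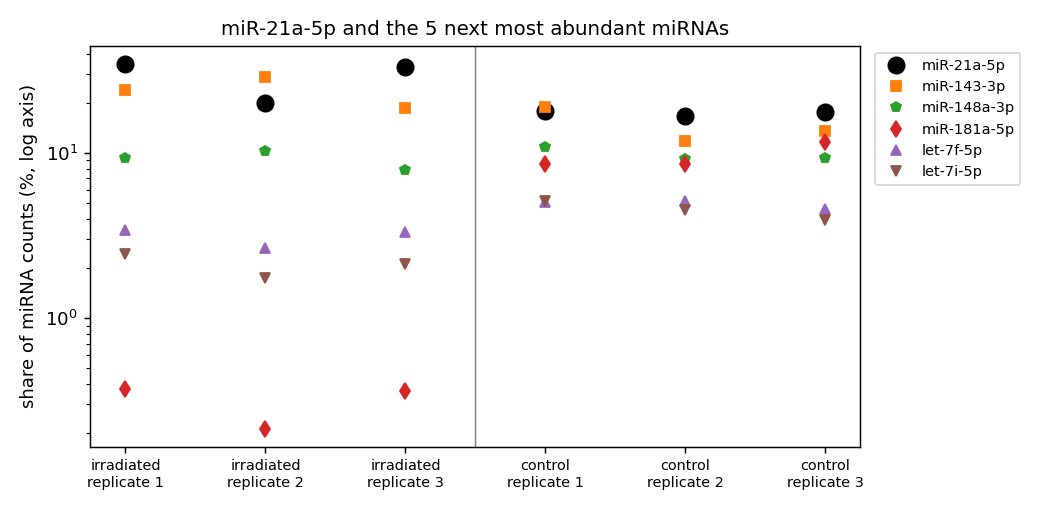
Share of miRNA counts on a log axis for miR-21a-5p (black circles) and the 5 next most abundant miRNAs by mean level, with irradiated libraries left of the line and control libraries right of it. MiR-21a-5p and miR-143-3p exchange the first place, and miR-181a-5p lies at 0.374% or less in irradiated libraries and at 8.52% or more in control libraries.

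Levels were compared over all miRNAs with edgeR's quasi-likelihood test, after scaling each library by trimmed-mean (TMM) factors, and p-values were adjusted by the Benjamini-Hochberg method over the 519 miRNAs tested, with a threshold of 0.05. In that fit 1 of the 2 strands passed, miR-21a-3p, and it was higher after irradiation. The background was high, since 27.7% of the tested miRNAs passed as higher and 33.5% as lower, and the median log2 change of all of them was 0.01. On the TMM scale miR-21a-5p was at 389930, 203860 and 326287 CPM in irradiated replicates 1, 2 and 3 and at 218196, 119612 and 178492 CPM in control replicates 1, 2 and 3. Here the groups overlapped, because control replicate 1 lay above irradiated replicate 2. The log2 fold change was 0.83 ± 0.34 (SE; 95% interval 0.09 to 1.58), with an edgeR adjusted p of 0.0522.

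The scaling set on which side of the threshold miR-21a-5p fell. The TMM factors spanned 0.823 for control replicate 1 to 1.39 for control replicate 2, and they widened the control values, which as plain shares ran only from 16.7% to 17.95%. With library totals the change was 0.74 and the edgeR adjusted p was 0.0031. With median-of-ratios factors the change was 0.96 (0.0474), with upper-quartile factors 1.28 (0.0186), and with TMM factors computed without miR-21a-5p itself 1.05 (0.0289). These scalings moved the median change of all tested miRNAs as well, to -0.13, 0.12, 0.44 and 0.23 in the same order. Relative to that median miR-21a-5p was higher by 0.82 with TMM factors and by 0.83 to 0.87 with the other 4. In the authors' deposited table the log2 change of miR-21a-5p is 0.92 with an adjusted p of 0.0393.

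Single libraries also moved the miR-21a-5p result. Without irradiated replicate 2 the change was 1.26 with an edgeR adjusted p of 0.0107. Without control replicate 1 it was 1.16 with 0.0454, so each of these made it pass. It did not pass without irradiated replicate 1 (0.63, edgeR adjusted p of 0.187) or irradiated replicate 3 (0.90, 0.126). Nor did it pass without control replicate 2 (0.63, 0.142) or control replicate 3 (0.99, 0.109). Over all 16 alternatives the log2 change ran from 0.58 to 1.28 and the adjusted p from 0.0031 to 0.187, and the direction was up in each. Irradiated replicate 2, the lowest of its group for miR-21a-5p, was the highest of all libraries in the summed muscle list (19766 CPM against 533 and 13589 CPM in irradiated replicates 1 and 3, and 167 to 475 CPM in controls). It was also highest in the summed erythroid list, with 5008 CPM against 538 and 2055 CPM in irradiated replicates 1 and 3 and 425 to 723 CPM in controls. The part of other tissues in its miR-21a-5p value was not tested. Outside the muscle and erythroid lists the group difference in share was 12.1 percentage points, against 11.8 with them. These lists are a small part of the counts, so leaving them out could move the share only a little. It also leaves any miR-21a-5p reads of other tissues in place, so it cannot measure that part.

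MiR-21a-3p, the passenger strand, was rare in every library. It was counted 65, 63 and 186 times in irradiated replicates 1, 2 and 3, against 40, 49 and 53 times in control replicates 1, 2 and 3. By library total these are 7.50, 7.38 and 20.03 CPM in irradiated libraries and 4.69, 6.34 and 6.43 CPM in control libraries. The groups did not overlap, here or on the TMM scale. On that scale groups did not overlap for 68.6% of the tested miRNAs, 32% with irradiated higher. Only irradiated replicate 3 stood clear of counting error. Its exact Poisson 95% interval was 17.3 to 23.1 CPM, whereas the interval of irradiated replicate 2 (5.67 to 9.45 CPM) overlapped that of control replicate 3 (4.82 to 8.41 CPM).

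The log2 fold change of miR-21a-3p was 1.098 ± 0.43 (SE; 95% interval 0.15 to 2.05), with an edgeR adjusted p of 0.0458. The call did not survive the loss of irradiated replicate 3, which left a change of 0.60 and an edgeR adjusted p of 0.172. It was also lost without control replicate 1 (1.21, adjusted p of 0.0861), control replicate 2 (0.96, 0.167) or control replicate 3 (1.32, 0.0569). Without irradiated replicate 1 the adjusted p was 0.0121 and without irradiated replicate 2 it was 0.0059. With library totals the change was 1.00 and the adjusted p 0.0980. The authors' deposited table gives a log2 change of 1.16 and an adjusted p of 0.0353.

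**Figure D3:**
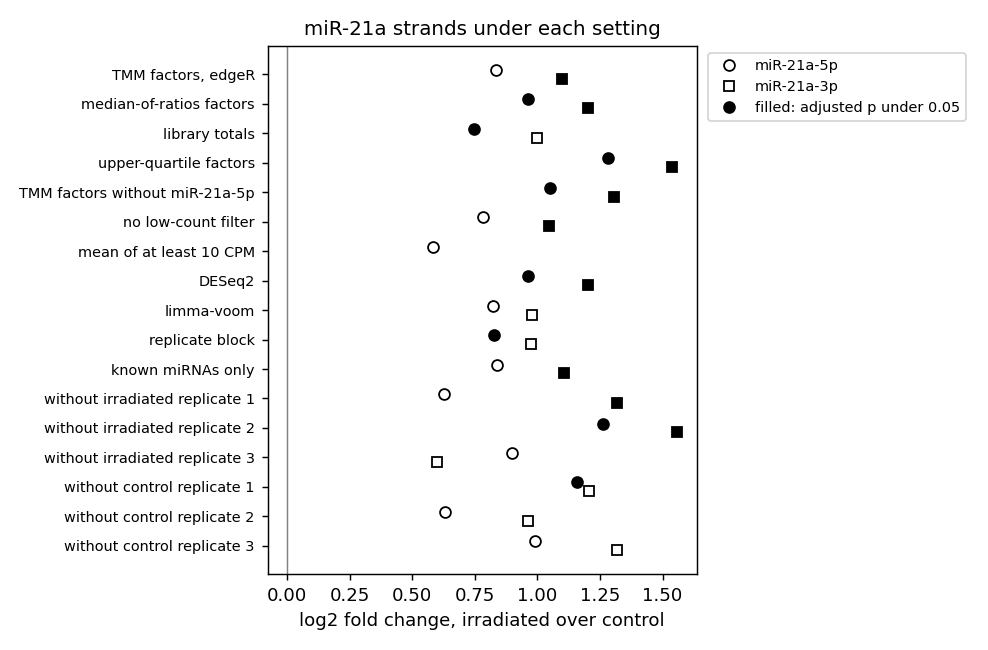
Log2 fold change of miR-21a-5p (circles) and miR-21a-3p (squares), irradiated over control, under each scaling, filter, tool and left-out library, filled where the adjusted p is under 0.05. All points lie right of 0, between 0.58 and 1.56, and for each strand some are filled and others open. MiR-21a-3p has no point at a mean of at least 10 CPM, which it did not reach.

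The guide outnumbered the passenger in every library, by at least 16525 to 1. MiR-21a-5p counts were 45985, 27109 and 16525 times those of miR-21a-3p in irradiated replicates 1, 2 and 3, against 38247, 26309 and 27453 times in control replicates 1, 2 and 3. The irradiated libraries held the highest and the lowest ratio, and the controls lay between them. The counting intervals of these extremes did not meet, with 36078 to 59583 in irradiated replicate 1 and 14314 to 19183 in irradiated replicate 3.

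A strand ratio needs no library scaling, since both strands are counted in the same library. The log2 ratio of 5p to 3p averaged 14.7 ± 0.738 in irradiated and 14.9 ± 0.296 in control libraries (SD, n = 3). It was fitted with limma over the 146 hairpins whose strands were both tested, of which 21 (14.4%) passed an adjusted p of 0.05. That background count was itself unstable, as it was 48 without irradiated replicate 1, 8 without irradiated replicate 3, 8 without control replicate 1, 3 without control replicate 2 and 0 without control replicate 3, where 37 had an unadjusted p under 0.05 and edgeR also called 0. The ratio of miR-21a changed by -0.13 ± 0.38 (SE; 95% interval -0.98 to 0.71; limma adjusted p of 0.832) and was not among them. The changes of the 5p and 3p strands were therefore not told apart, and the interval still admits a ratio change of nearly 1 log2 unit downward. The sign turned upward without irradiated replicate 3 (0.23) or control replicate 1 (0.03), again far from the threshold.

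Among the 146 hairpins miR-21a was the most uneven by mean ratio. It ranked first, first and second in irradiated replicates 1, 2 and 3, and first, second and first in control replicates 1, 2 and 3. This place is a description, because miR-21a was chosen for its 5p level, which enters the ratio. Hairpins with a strand too rare to be tested are not among the 146. The median hairpin differed between strands by only 3.49 to 3.85 log2 units, whichever strand was higher. The next most uneven was let-7g, a member of the let-7 family of differentiated tissues, with a log2 ratio of 13.3 in irradiated and 14.3 in control libraries. Of the other abundant hairpins, miR-143 and miR-148a leaned the opposite way, toward 3p. Their log2 ratios were -11.2 in irradiated and -11.9 in control libraries for miR-143, and -9.45 in irradiated and -9.49 in control libraries for miR-148a. Let-7i leaned toward 5p with 10.4 in either group. None of these 3 passed the limma test, with adjusted p of 0.337, 0.941 and 0.958.

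**Figure D4:**
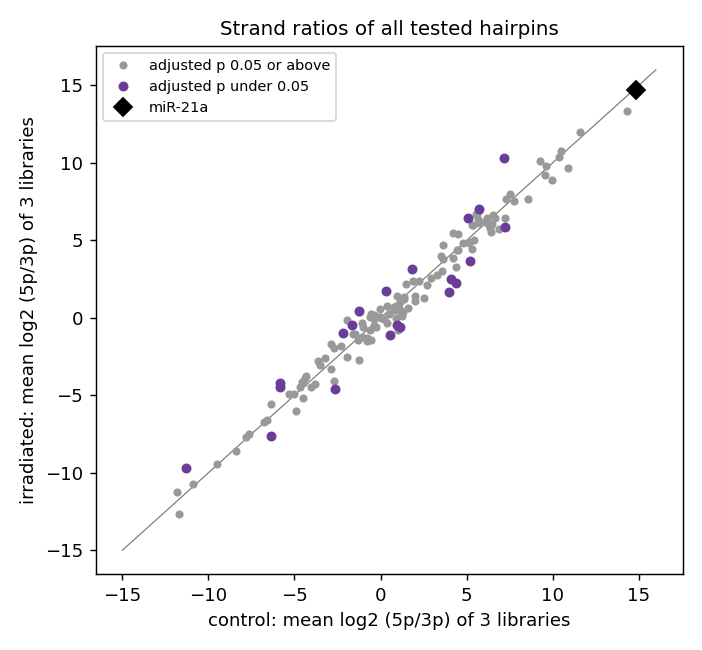
Each point is a hairpin with both strands tested (146 in all), placed by the mean log2 ratio of 5p to 3p counts in irradiated libraries (vertical) and control libraries (horizontal). The grey line marks equal ratios. MiR-21a (black diamond) lies at the upper end on the line, at 14.7 in irradiated and 14.9 in control libraries, and the 21 hairpins with an adjusted p under 0.05 are violet.

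The guide of miR-21a begins with U and its passenger with C, and first bases differed between abundant and rare strands across the 146 hairpins. The more abundant strand began with U in 80 of the hairpins (54.8%) and the rarer strand in 30 (20.5%). A first C was found in 17 of the more abundant strands (11.6%) and in 55 of the rarer ones (37.7%). The 5p strand was the more abundant in 85 hairpins and the 3p strand in 61. These counts are a description, since hairpins of related families share sequence.

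Because a share rises whenever other miRNAs fall, miR-21a-5p was also set against groups of miRNAs within each library. The lymphoid list held miRNAs such as miR-181a-5p and miR-128-3p, and also both strands of miR-142a, which are not particular to lymphocytes. On the TMM scale miR-142a-5p averaged 3387 CPM in irradiated and 8847 CPM in control libraries. The list summed to 7065 to 10447 CPM in irradiated libraries, against 130976 to 172462 CPM in control libraries. Of its 9 members 7 passed as lower and 0 as higher, beside 33.5% and 27.7% of all tested miRNAs. The 2 that did not pass were miR-150-5p (log2 change -0.31, edgeR adjusted p of 0.373) and miR-342-3p (-0.53, 0.191). The largest part of the control sums was miR-181a-5p, at 8.52%, 8.60% and 11.7% of all counts in control replicates 1, 2 and 3. A second list, of the miR-17-92 cluster and its paralogue clusters miR-106a-363 and miR-106b-25, miRNAs of lymphocyte proliferation, summed to 2908 to 3654 CPM in irradiated and 29180 to 36051 CPM in control libraries. In that list 13 of 13 passed as lower, beside 33.5% of all tested miRNAs. In these lists no member was at 0 in all libraries. Outside these 2 lists miR-21a-5p held 35.0%, 20.2% and 33.5% of the remaining counts in irradiated replicates 1, 2 and 3, against 21.4%, 20.4% and 22.2% in control replicates 1, 2 and 3. Irradiated replicate 2 then fell below all controls, the groups overlapped, and the difference of 8.25 percentage points had an exact two-sided permutation p of 0.4.

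MiR-21a-5p and the summed lymphoid list moved far apart. Counts of miR-21a-5p were 33.0, 28.3 and 33.9 times the lymphoid sum in irradiated replicates 1, 2 and 3, against 1.37, 1.13 and 1.02 times in control replicates 1, 2 and 3. Against miR-181a-5p alone, the leading thymocyte miRNA, the ratio was 92.3, 93.6 and 91.4 in irradiated and 2.11, 1.94 and 1.52 in control libraries. Against miR-148a-3p it was 3.69, 1.94 and 4.20 in irradiated and 1.66, 1.82 and 1.91 in control libraries, where irradiated replicate 2 nearly touched the controls. Over let-7f-5p it was 10.1, 7.50 and 9.98 in irradiated and 3.58, 3.25 and 3.84 in control libraries. Over let-7i-5p it was 14.2, 11.4 and 15.6 in irradiated and 3.51, 3.71 and 4.51 in control libraries, so the groups stood apart for both. Over miR-143-3p, the other leading miRNA, it was 1.43, 0.690 and 1.77 in irradiated and 0.939, 1.42 and 1.29 in control libraries, so the groups overlapped. Apart from that over miR-143-3p, each of these comparisons had an exact two-sided permutation p of 0.1, the smallest possible. Their Benjamini-Hochberg value was 0.217 over the 13 ratios computed.

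Against the non-lymphoid lists the ratio did not separate the groups. Over the summed stromal and vascular list (such as miR-143-3p, miR-126a-3p and miR-199a-3p), miR-21a-5p stood at 1.22, 0.569 and 1.36 in irradiated replicates 1, 2 and 3 and at 0.853, 1.15 and 1.101 in control replicates 1, 2 and 3, a mean log2 difference of -0.07 (exact permutation p of 1.0). MiR-143-3p alone made up 77.0% to 85.4% of that sum in irradiated and 81.1% to 90.8% in control libraries, so this ratio largely repeats the one over miR-143-3p. Over the list without miR-143-3p, an alternative chosen after seeing the data, the ratio was 8.33, 3.24 and 5.91 in irradiated and 9.26, 6.09 and 7.38 in control libraries, a log2 difference of -0.46 with overlapping groups (exact permutation p of 0.4). The full stromal and vascular list, with miR-143-3p, summed to 243037 to 352086 CPM in irradiated and 144692 to 210457 CPM in control libraries. Of its 12 members 8 passed as higher and 0 as lower, beside 27.7% and 33.5% of all tested miRNAs. MiR-143-3p itself did not pass (log2 change 0.73, edgeR adjusted p of 0.118). The others that did not pass were miR-145a-5p (0.61, 0.177), miR-126a-5p (0.09, 0.768) and miR-140-3p (0.03, 0.959). Over the epithelial list (miR-205-5p, miR-203-3p and the miR-200 family) the ratio was 13.5, 9.86 and 11.6 in irradiated and 16.6, 11.7 and 14.97 in control libraries (log2 difference -0.30, exact permutation p of 0.2). That list summed to 20303 to 28547 CPM in irradiated and 10837 to 14208 CPM in control libraries. Of its 7 members 4 passed as higher and 0 as lower, beside 27.7% and 33.5% of all tested miRNAs. With 3 libraries a group, these p-values do not show that the ratios were alike.

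Myeloid cells are a known source of miR-21, and their markers were scarce. The 4 listed myeloid miRNAs (both strands of miR-223 and of the macrophage miRNA miR-511) summed to 44.9, 111 and 167 CPM in irradiated and 28.2, 75.8 and 60.7 CPM in control libraries, so the groups overlapped. Only miR-223-5p passed, as higher. Over this sum the miR-21a-5p ratio differed by -0.19 on the log2 scale (exact permutation p of 0.7). The erythroid list had 3 of 4 members pass as higher and the muscle list 3 of 3 tested, beside 27.7% of all tested miRNAs, with sums as given above. Each of the 3 erythroid members overlapped between groups, as miR-451a did with 334 TMM CPM in irradiated replicate 1 and 374 TMM CPM in control replicate 3. The part of any of these lists in the miR-21a values was not tested.

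**Figure D5:**
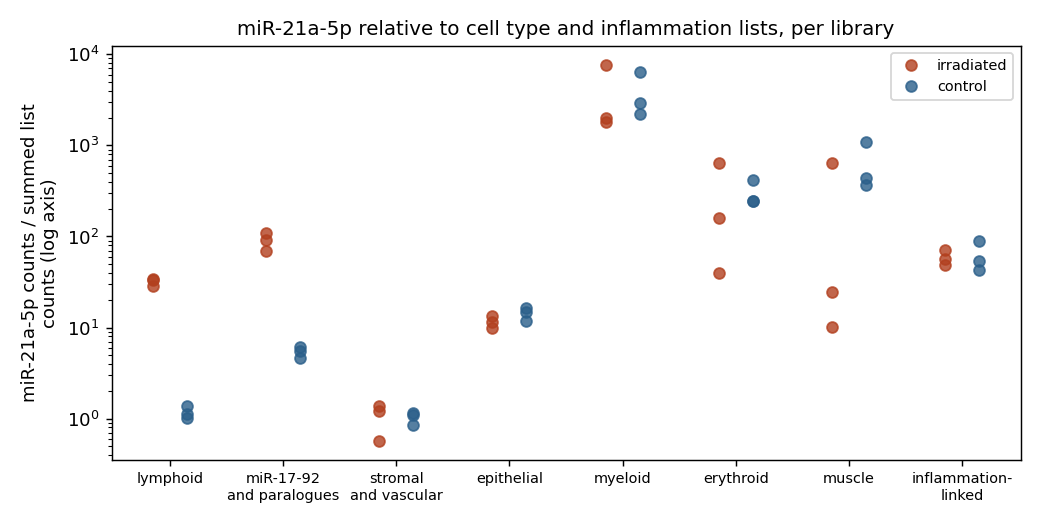
MiR-21a-5p counts divided by the summed counts of each list, on a log axis, with irradiated libraries left of control libraries in each column and a point per library. The groups stand apart for the lymphoid list (28.3 to 33.9 in irradiated, 1.02 to 1.37 in control) and the list of miR-17-92 and paralogues (68.8 to 109 in irradiated, 4.63 to 6.15 in control) and overlap for the other 6 lists.

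MiR-21 belongs with a set of miRNAs induced by NF-κB, AP-1, STAT3 or CREB, so the other listed members of that set were read beside it. Of 9 tested, 5 passed as higher, 0 as lower and 4 did not pass, with a median log2 change of 0.69 against 0.01 for all tested miRNAs, of which 27.7% passed as higher and 33.5% as lower. A rise was not particular to this list. The median was higher in the myeloid (0.79), stromal and vascular (1.14), epithelial (1.32), erythroid (3.01) and muscle (4.85) lists. It was lower in the lymphoid (-3.56) and miR-17-92 (-3.52) lists. MiR-222-3p, linked to cell growth, rose by 1.39 with an edgeR adjusted p of 0.0014. MiR-146a-5p, an NF-κB target that restrains the same pathway, rose by 1.30 (0.0040). MiR-9-5p rose by 1.17 (0.0147), miR-146b-5p, a STAT3 target, by 0.78 (0.0342) and miR-147-3p, raised by Toll-like receptors in macrophages, by 0.69 (0.0447). MiR-221-3p, which shares a cluster with miR-222, did not pass (0.60, edgeR adjusted p of 0.0567).

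The remaining 3 of that list had negative changes that did not pass. They were miR-155-5p of activated lymphocytes and macrophages (-0.12, edgeR adjusted p of 0.717), miR-132-3p (-0.36, 0.368) and miR-212-3p (-0.62, 0.156), the last a CREB-driven pair. The list summed to 4885, 4154 and 5888 CPM in irradiated and 2031, 3883 and 3268 CPM in control libraries. MiR-21a-5p was 70.6, 48.2 and 56.2 times this sum in irradiated replicates 1, 2 and 3 and 88.4, 42.9 and 54.0 times in control replicates 1, 2 and 3, with a log2 difference of -0.03 (exact permutation p of 1.0).

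The miRNAs whose levels followed miR-21a-5p most closely were ranked by Pearson's r of log2 TMM CPM over the 6 libraries, among 310 others with a mean of at least 10 CPM. They were miR-152-3p (0.98), miR-200a-3p (0.98), miR-99b-3p (0.93), miR-221-3p (0.91) and miR-147-3p (0.91). MiR-152-3p is of the miR-148 family and miR-200a-3p is epithelial. MiR-152-3p was at 5169, 2608 and 5347 TMM CPM in irradiated replicates 1, 2 and 3 and at 2788, 1607 and 2393 TMM CPM in control replicates 1, 2 and 3. Like miR-21a-5p it was lowest in replicate 2 of each group, and control replicate 1 lay above irradiated replicate 2. All values of a library share its scaling factor, and the groups differ, so these r describe 6 points and carry no test.

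For miR-21a-3p the closest of 311 were miR-28a-3p (0.95), miR-146b-5p (0.92), miR-200b-5p (0.90), miR-186-5p (0.89) and miR-147-3p (0.89). MiR-28a-3p was at 84.8, 101 and 177 TMM CPM in irradiated replicates 1, 2 and 3 and at 50.3, 46.0 and 57.7 TMM CPM in control replicates 1, 2 and 3, highest in irradiated replicate 3 as miR-21a-3p was. MiR-147-3p was among the closest 5 of both strands. The strands followed each other less closely, with r of 0.73 between miR-21a-5p and miR-21a-3p. With the group means removed, the r of the strands was 0.42. By the same measure r was 0.96 for miR-152-3p with miR-21a-5p and 0.94 for miR-28a-3p with miR-21a-3p. The strands parted in irradiated replicate 1, which had the highest TMM level of miR-21a-5p (389930 CPM) while miR-21a-3p was at 8.48 CPM, and in irradiated replicate 3, which had the highest miR-21a-3p (19.7 CPM).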

How the data were processed

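Per the labels, RNA of whole thymus was extracted with TRIzol and sequenced in 3 irradiated and 3 control libraries; they call the molecule polyA RNA, name NEBNext library kits and give no small-RNA protocol. The deposited table holds whole-number read counts per mature miRNA, the authors' TPM (counts scaled to the library's miRNA total, matched by recomputed values within 4.61e-05), and the authors' log2 fold change with its p-value and adjusted p-value. The submitters' processing notes name DESeq2 1.10.1. No source used here names the aligner or the build. The table has 6 more count columns, of groups outside the labels, and these were left out.

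The test of counts was that of edgeR 4.0.16 under R 4.3.3 (TMM, filterByExpr, robust quasi-likelihood, Benjamini-Hochberg over 519 miRNAs). Log2 strand ratios (prior count 0.5) were fitted with limma 3.58.1 (trend, robust) over 146 hairpins paired by name. Shares and ratios to lists were compared by exact permutation. Replicates differed by more than sampling noise. The scripts were tested on simulated data. Alternatives were other scalings, filters, tools (DESeq2 1.42.0, limma-voom), a replicate block, other denominators and leaving out each library. The denominator without the muscle and erythroid lists, and the stromal list without miR-143-3p, were chosen after seeing the data. Folding used RNAfold 2.7.2. Coordinates are from RefSeq (GRCm38.p6) and GENCODE M21.

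The members and lists were chosen with earlier results of these data known. Named miRNAs were the members, the 5 most abundant others, miRNAs with a member's seed, the inflammation-linked list, the 5 closest in pattern to each member, and hairpins of the abundant ones. Other miRNAs, such as let-7g and miR-223-5p, were named after their values were seen.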

Additional observations from a re-analysis of the deposited data

How the results depend on the processing

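The log2 change of miR-21a-5p (0.83, edgeR adjusted p of 0.0522) stayed positive under all 16 alternatives. It passed with median-of-ratios factors (0.96), library totals (0.74), upper-quartile factors (1.28), TMM factors without miR-21a-5p (1.05) and DESeq2 (0.96). It did not pass with limma-voom (0.82), with known miRNAs alone (0.84) or when rare miRNAs were kept (0.78). Nor did it pass when only miRNAs averaging 10 CPM or more were tested (0.58). With a library left out it ranged from 0.63 to 1.26, and passed only without irradiated replicate 2 or control replicate 1. MiR-21a-3p (1.098) stayed positive under 15 alternatives and did not pass with library totals (1.00) or limma-voom (0.98), and it ranged from 0.60 to 1.56 with a library left out. The miR-21a strand ratio (-0.13) passed under none of its 10 alternatives and ranged from -0.51 to 0.23 with a library left out. The difference in miR-21a-5p share was 17.6 percentage points outside miR-143-3p, and 9.13 to 16.4 with a library left out. The miRNAs past the threshold numbered 318, and 210 at a mean of at least 10 CPM, where fewer were tested, and 266 to 374 with a library left out.

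Hairpins with a changed strand ratio numbered 21, and 12 with both strands at 10 CPM, which leaves out miR-21a. With a library left out they ranged from 0 (limma, without control replicate 3, where 37 had an unadjusted p under 0.05 and edgeR also gave 0) to 48. Irradiated and control samples with the same replicate number correlated at 0.0994, -0.0244 and 0.230 in their deviations. Irradiated replicate 1 correlated slightly better with control replicate 2 (0.108), and irradiated replicate 2 correlated best with control replicate 3 (0.102). The numbers were therefore not taken as pairs. With the replicate block miR-21a-5p passed (0.83, edgeR adjusted p of 0.0036), miR-21a-3p did not (0.98, 0.0520), the strand ratio was -0.13, 298 miRNAs passed and 33 hairpins passed. The counts of 40 to 186 reads limit what can be said of miR-21a-3p, and the causes of these shifts were not tested.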
